A study of Arabidopsis thaliana with 8 samples.

Results

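L20, a line of Arabidopsis thaliana that overexpresses the wheat gene TabZIP6, was compared with wild-type seedlings while both still grew at 22 °C, before any cold. The comparison used 4 of the 8 arrays of the series, 2 of L20 and 2 of wild type, chosen by their titles. Total RNA of whole seedlings aged 10 days was hybridised to Affymetrix arrays, which read each gene through several short probes grouped into a probe set. The wild type was ecotype Col-1 with no transgene stated. L20 was described by its line name and by overexpression of TabZIP6. Its labels name neither the ecotype nor the promoter that drives the transgene, and L20 was the only overexpressing line. The other 4 arrays held the same wild type and the same line after 6 h at 4 °C, and they were used here for the spread between replicates and for levels beside those before cold. TabZIP6 is not an Arabidopsis gene and no probe set was named for it, so the level of the transgene was not analysed here.

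Basic leucine zipper (bZIP) proteins are transcription factors that bind DNA as dimers. In plants, several bZIP subfamilies act in abscisic acid signalling, in light signalling, in stress of the endoplasmic reticulum and in sugar and amino acid metabolism. When Arabidopsis is chilled, CBF transcription factors switch on cold-regulated (COR) genes, many of which encode hydrophilic protective proteins such as the dehydrins. Abscisic acid and drying switch on many of the same COR genes through bZIP factors.

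Tests ran on 22746 probe sets, and 13513 of these could be tied to 1 gene. Values are RMA values, that is, background-corrected and normalized signals on the log2 scale, so a difference of 1 is a doubling. Array medians before cold lay between 4.95 and 5.05. The upper quartile was 6.28 in replicate 1 of wild type and lay between 6.48 and 6.64 on the other 3 arrays. Here and below, measured means that a probe set could be tied to that gene alone. Of the other probe sets, 503 had several genes and 8730 had none, and listed genes not counted as measured may lie among them. Of the tissue markers looked for, 4 were measured in this sense. RCA, the rubisco activase gene of green tissue, stood between 12.62 and 12.99 on the 4 arrays. The root hair genes EXPA7 and EXPA18 stood between 3.70 and 5.14, and the guard cell gene FMA between 5.09 and 5.54. No marker differed between the lines in the test. In whole seedlings, fewer cells of a type and less RNA per cell cannot be told apart.

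Most probe sets lay close between the lines. Dim probe sets are included, and signal over background was not analysed. The median difference over all probe sets was 0.04, and 97.6% of them differed by less than 1. At least 1 log2 unit separated the group means of 346 probe sets that were higher in L20 and of 203 that were lower. A difference of 3 or more was seen for 13 higher and 3 lower probe sets. Across all 8 arrays limma called 4 probe sets at an adjusted p under 0.05, or 0.0176% of those tested, of which 3 were higher in L20 (0.0132%) and 1 was lower (0.0044%). An unadjusted p under 0.05 was reached by 5.54% of probe sets, 907 higher (3.99%) and 352 lower (1.55%).

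Replicate 1 minus replicate 2, by the numbers in the titles, correlated between all 4 groups at 0.341 to 0.837. The lowest value was that between the lines before cold. The labels do not say what arrays of the same number share. With the replicate number as a block in the fit, limma called 38 probe sets, or 0.167%, of which 22 were higher in L20 (0.0967%) and 16 were lower (0.0703%). All 4 calls of the fit without the block were among them. This count was unstable: with 1 of the 8 arrays left out the fit with the block called 0 to 615, and with only the 4 arrays before cold and the block it called 0. The count was 0 without either chilled wild-type array and 1 without either chilled L20 array. Of the arrays before cold, leaving out replicate 1 or 2 of wild type gave 170 or 615 calls, and leaving out replicate 1 or 2 of L20 gave 18 or 217. Genes below that are named as called with the block share this limit. Of the 38, 21 could be tied to 1 gene and 17 could not. Each of the 38 had values that did not overlap between the lines, as had 27.7% of all probe sets. The titles call the replicates biological. How they were grown is not described, and p-values therefore reflect the spread of these arrays alone. The fit with the block takes the same spread for all 4 groups. Replicate 1 minus replicate 2 correlated between the lines at 0.837 after cold and at 0.341 before it. Whether the spread about the block differed between the temperatures was not tested. A permutation test of a single gene over 4 arrays reaches no lower than an exact two-sided p = 0.333, which is why only model fits over all probe sets are given.

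**Figure D1:**
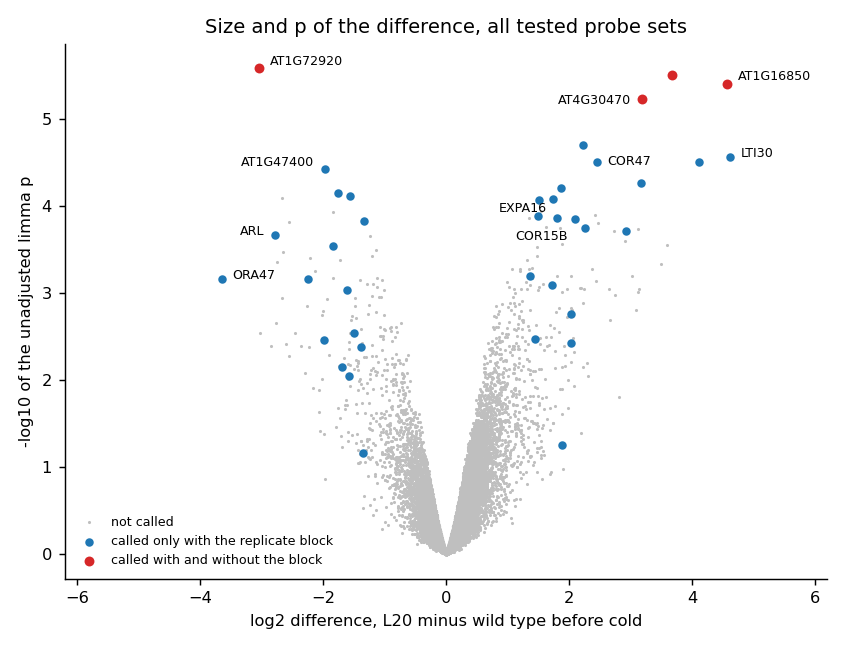
Each point is 1 of 22746 probe sets. The x axis is the log2 difference of L20 minus wild type before cold and the y axis is -log10 of the unadjusted limma p of the fit without the block. Red marks the 4 probe sets called with and without the replicate block, and blue the others called with the block only. The called points lie on both sides, 22 to the right and 16 to the left.

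The strongest calls were 2 loci and 1 unnamed probe set that were high in L20, and 1 locus that was low. AT1G16850 stood at 4.68 and 4.83 on the wild-type arrays and at 9.20 and 9.44 on the L20 arrays. It was near the bottom of the scale in wild type and well up the scale in L20, with more than 4 log2 units of clear space between the lines. The difference was 4.56 ± 0.35, or 23.7-fold, with a limma adjusted p = 0.0303. Here and below, ± gives the standard error of the fit without the block unless SD is written. AT4G30470 stood at 5.31 and 5.66 in wild type and at 8.81 and 8.53 in L20, a difference of 3.19 ± 0.26, or 9.12-fold (limma adjusted p = 0.0333). Probe set 248337_at, which has no gene name here, stood at 7.29 and 8.03 in wild type and at 11.52 and 11.15 in L20. Its difference was 3.67 ± 0.27, or 12.8-fold (limma adjusted p = 0.0303).

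AT1G72920 showed the opposite pattern. Its values were 6.58 and 6.70 in wild type and 3.73 and 3.47 in L20, a moderate signal in wild type and one at the low end of the scale in L20. It was 8.25-fold lower in L20, with a difference of -3.04 ± 0.22 (limma adjusted p = 0.0303). These 4 calls needed all 8 arrays: with any 1 array left out, limma called 0 probe sets, with 866 to 1801 at an unadjusted p under 0.05. With only the 4 arrays before cold, 1 probe set was called, and 0 with the block as well.

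**Figure D2:**
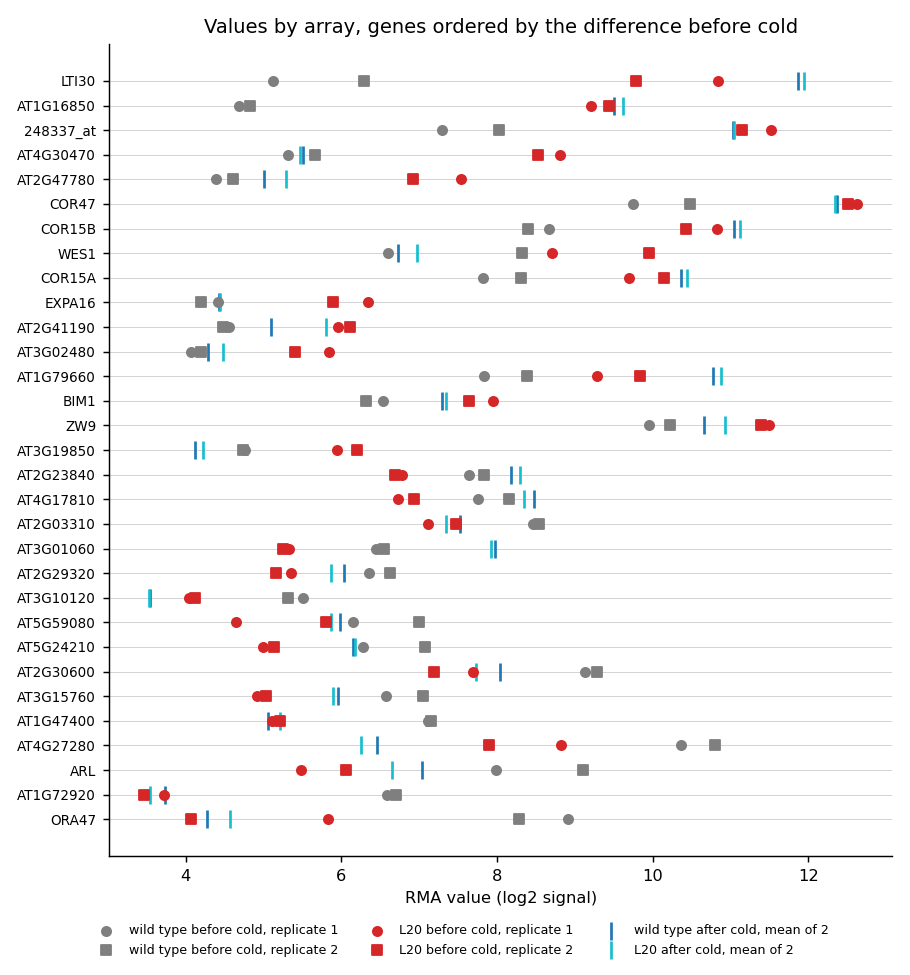
Points are the RMA values (log2 signal) of single arrays before cold for the 30 genes and 1 probe set named by call or by rank, grey for wild type and red for L20, with circles for replicate 1 and squares for replicate 2. Vertical ticks are the means of the 2 arrays after cold. LTI30 and AT1G16850 are at the top with L20 far to the right of wild type, and ORA47 is at the bottom with L20 far to the left.

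Cold-regulated genes had the highest median of all lists with at least 3 measured genes. Of 18 loci listed as COR genes or as targets of CBF factors, 6 had a probe set tied to them alone by name. The others may lie among the probe sets without a single gene name. The fit with the replicate block called 3 of them as higher in L20, namely LTI30, COR47 and COR15B, and the fit without it called 0. Over all probe sets, these fits called 0.0967% and 0.0132% as higher. Without the block, 5 of 6 were higher at an unadjusted p under 0.05, against 3.99% of all probe sets. All lists were chosen with earlier results of these data known, so such shares are descriptions and not tests. The list had a median difference of 1.97, against 0.03 over all genes. In the replicate numbers taken singly its median was 2.02 and 1.93.

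LTI30 encodes a dehydrin, a hydrophilic protein that protects membranes and proteins when cells lose water. Its values were 5.12 and 6.29 in wild type and 10.84 and 9.79 in L20. No wild-type array came within 3 log2 units of an L20 array, and yet the replicates of each line were far apart. The difference was 4.61 ± 0.47, or 24.4-fold (limma adjusted p = 0.0376 with the replicate block and 0.0887 without it). COR47, another dehydrin gene, was already bright in wild type at 9.75 and 10.48 and reached 12.62 and 12.51 in L20. It differed by 2.45 ± 0.26, or 5.47-fold (limma adjusted p = 0.0371 with the block and 0.0887 without it).

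COR15A and COR15B are neighbouring genes for small proteins of the chloroplast stroma that protect membranes during freezing. COR15B stood at 8.66 and 8.40 in wild type and at 10.82 and 10.42 in L20, a difference of 2.09 ± 0.28 (limma adjusted p = 0.0164 with the block and 0.135 without it). COR15A stood at 7.82 and 8.31 in wild type and at 9.70 and 10.14 in L20, a difference of 1.85 ± 0.26. The lines did not overlap in either gene, as in 27.7% of all probe sets. COR15A missed the threshold in both fits (limma adjusted p = 0.0583 and 0.135). The genes resemble each other, and cross-hybridisation between their probe sets was not tested.

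The remaining measured genes of the list differed less. COR27, a cold-regulated gene that also acts in the circadian clock, stood at 6.78 and 7.54 in wild type and at 8.52 and 7.83 in L20 (1.02 ± 0.33). AT4G33980 stood at 6.65 and 7.69 in wild type and at 6.74 and 6.70 in L20, and was the only measured member with overlapping lines. The others were higher in L20 without overlap, as were 17.4% of all probe sets. Neither COR27 nor AT4G33980 was called in either fit.

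Other late-embryogenesis genes, whose products are also hydrophilic and gather in drying seeds and tissues, were mostly dim and close between the lines. Members were matched by gene name, which left out the dehydrin gene COR47 and may have left out loci without such a name. Of 7 measured members, LTI30 included, all had a difference above 0, with a median of 0.39 and a range from 0.17 to 4.61. Over the 3 with a mean of at least 6 the median was 2.20. LEA4-5 stood at 5.84 and 5.57 in wild type and at 8.58 and 7.23 in L20, a difference of 2.20 ± 0.87 that missed the test (limma adjusted p = 0.403 with the block and 0.861 without it). AtLEA4-1 (0.39 ± 0.19) and LEA (0.30 ± 0.20) remained between 3.91 and 4.58 on all 4 arrays.

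Of 12 measured genes of the Aux/IAA, GH3 and SAUR families of auxin response, the block fit called WES1 alone. That fit called 0.0967% of all probe sets as higher. The median of the 12 was 0.06. For the 2 members with a mean of at least 6 over all arrays, WES1 and IAA29, it was 2.51. WES1, also named GH3.5, encodes an enzyme that joins amino acids to auxin and to other acidic hormones. Its values were 6.59 and 8.32 in wild type and 8.71 and 9.96 in L20. Replicate 2 was the higher in each line, so that the lines were closest where replicate 2 of wild type met replicate 1 of L20. The difference was 1.88, with a standard error of 0.20 with the block (limma adjusted p = 0.0376) and of 0.81 without it (0.91), and within the replicate numbers it was 2.12 and 1.64.

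IAA29, which encodes an Aux/IAA repressor of auxin-response factors, had a larger difference that just missed the block fit. It stood at 6.10 and 5.82 in wild type and at 8.76 and 9.45 in L20 (3.14 ± 0.57, limma adjusted p = 0.0571 with the block and 0.234 without it). GH3.3, an enzyme of the same kind as WES1, stood at 4.13 and 5.45 in wild type and at 7.07 and 6.48 in L20 (1.98 ± 0.67, limma adjusted p = 0.217 with the block). In these 3 auxin genes, of the 12 measured, L20 was higher without overlap, as in 17.4% of all probe sets. The other 9 measured family members had differences between -0.18 and 0.60.

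Among 17 measured expansins, proteins that loosen the cell wall during growth, 1 was called higher with the block, against 0.0967% of all probe sets. The median was 0.01, or -0.46 over the 5 with a mean of at least 6. EXPA16 stood at 4.41 and 4.20 in wild type, at the low end of the scale, and at 6.34 and 5.89 in L20. The difference was 1.81 ± 0.24, or 3.5-fold (limma adjusted p = 0.0256 with the block and 0.135 without it). The expansin-like genes EXLA1 (1.67 ± 0.39) and EXLA2 (1.12 ± 0.42) were higher without passing the adjusted test, and EXPB3 (-0.81 ± 0.22) was lower without passing it. EXLA1 rested more on replicate 1, with a difference of 2.47 there and 0.86 in replicate 2.

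BIM1, a helix-loop-helix factor that works with the brassinosteroid regulator BES1, was called with the block. Its 4 values were 6.54 and 6.31 in wild type and 7.94 and 7.65 in L20, a difference of 1.37 ± 0.23 (limma adjusted p = 0.0347 with the block and 0.234 without it). ARL, an ARGOS-like gene that promotes cell expansion in leaves and cotyledons, was called in the other direction. It stood at 7.98 and 9.11 in wild type and at 5.48 and 6.06 in L20, a difference of -2.78 ± 0.39, or 6.86-fold lower (limma adjusted p = 0.0256 with the block and 0.143 without it). Of the 3 measured cell expansion regulators, the other two were higher without a call in either fit. HAT2, an auxin-induced homeodomain gene, stood at 7.45 and 7.94 in wild type and at 9.64 and 9.32 in L20 (1.79 ± 0.36). EXO, a gene of brassinosteroid-driven growth, stood at 6.72 and 8.18 in wild type and at 8.67 and 8.56 in L20 (1.17 ± 0.45).

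**Figure D3:**
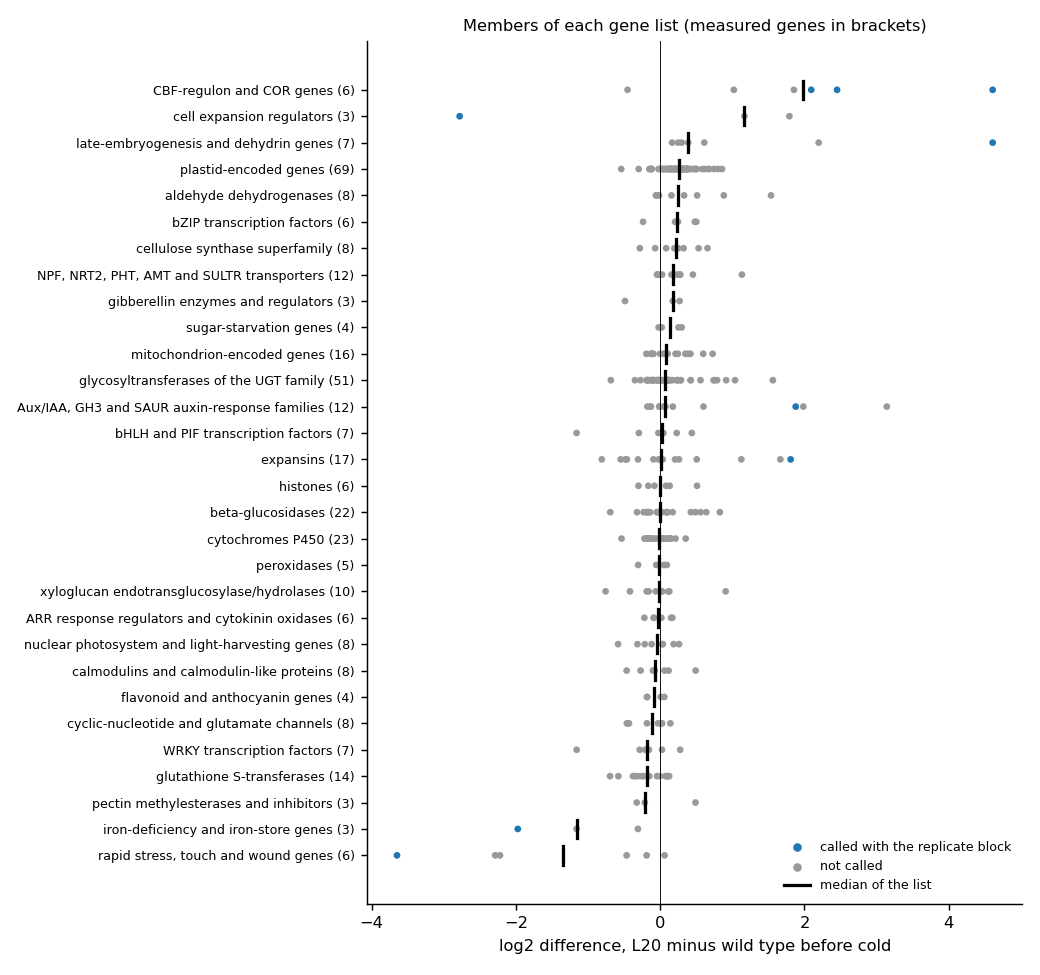
Each point is 1 measured gene of a list, placed by its log2 difference of L20 minus wild type before cold. Black bars are list medians, blue marks genes called with the replicate block, and the number measured is in brackets. The medians of 25 of the 30 lists lie within 0.3 of 0, the CBF-regulon and COR list is highest at 1.97 and the rapid stress list is lowest at -1.34.

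ORA47 alone was called among the genes that respond within minutes to touch, wounding and other stress. Of 6 measured members, 1 was called lower with the block, against 0.0703% of all probe sets, and 0 without it, against 0.0044%. The median was -1.34. At an unadjusted p under 0.05, 3 were lower and 0 were higher, against 1.55% and 3.99% of all probe sets. This list too was chosen with earlier results known and was not tested. ORA47, an AP2/ERF factor that switches on jasmonate biosynthesis, stood at 8.91 and 8.29 in wild type and at 5.82 and 4.07 in L20. It had the most negative difference of all named genes, at -3.65 ± 0.63, or 12.5-fold lower, although the L20 arrays themselves were 1.75 apart (limma adjusted p = 0.0183 with the block and 0.234 without it). AT4G27280 stood at 10.36 and 10.80 in wild type and at 8.83 and 7.90 in L20 (-2.22 ± 0.35, limma adjusted p = 0.0664 with the block).

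STZ, also named ZAT10, is a zinc-finger repressor induced by salt, cold and drought. It stood at 9.25 and 9.74 in wild type and at 8.11 and 6.31 in L20, a difference of -2.29 ± 0.62 that missed both fits. In each of these 3 genes replicate 2 of L20 was the lowest array. The list median was -0.64 in replicate 1 and -2.39 in replicate 2, and -0.70 without replicate 2 of L20. CML38, a calmodulin-like gene, differed in sign between the replicates, at 0.95 in replicate 1 and -1.88 in replicate 2. PDF1.2, a defensin gene of the jasmonate response and the only measured member of its list, differed by -0.54 ± 0.63.

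Of the 3 measured iron-deficiency genes, AT1G47400 was called lower with the block, as were 0.0703% of all probe sets. It stood at 7.11 and 7.15 in wild type and at 5.11 and 5.21 in L20, with tight replicates in each line. The difference was -1.97 ± 0.21, or 3.93-fold lower (limma adjusted p = 0.0256 with the block and 0.096 without it). BHLH101, a helix-loop-helix activator of the iron-deficiency response, stood at 6.47 and 5.59 in wild type and at 5.02 and 4.73 in L20 (-1.16 ± 0.31) and missed both fits. PYE, a regulator of iron homeostasis, overlapped between the lines (-0.31 ± 0.27).

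The other genes called with the block are known here by locus only. AT2G41190 stood at 4.55 and 4.48 in wild type and at 5.95 and 6.12 in L20 (1.52 ± 0.19, limma adjusted p = 0.0347 with the block). AT3G02480 had 4.07 and 4.20 in wild type and 5.84 and 5.41 in L20 (1.49 ± 0.20, limma adjusted p = 0.0499 with the block). AT1G79660 stood at 7.83 and 8.39 in wild type and at 9.28 and 9.84 in L20 (1.45 ± 0.33, limma adjusted p = 0.0292 with the block). In AT1G79660 the replicate numbers gave nearly the same difference, 1.45 and 1.46, while the arrays of each line were 0.56 apart.

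Among the lower loci, AT3G15760 stood at 6.57 and 7.05 in wild type and at 4.92 and 5.04 in L20 (-1.83 ± 0.27, limma adjusted p = 0.0267 with the block). AT2G30600 had 9.12 and 9.28 in wild type and 7.69 and 7.19 in L20 (-1.76 ± 0.21, limma adjusted p = 0.0444 with the block). AT5G24210 had 6.28 and 7.07 in wild type and 4.99 and 5.14 in L20 (-1.61 ± 0.29, limma adjusted p = 0.0494 with the block). All 3 had L20 arrays below the lower wild-type array by 1 log2 unit or more. AT5G59080 (-1.35, standard error 0.15 with the block and 0.62 without it) and AT3G10120 (-1.33 ± 0.18) were called with the block as well. They differed in spread: AT5G59080 was at 6.57 ± 0.60 in wild type and 5.22 ± 0.82 in L20 (SD, n = 2), while AT3G10120 stood at 5.50 and 5.32 against 4.04 and 4.11.

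Like COR15A, the higher genes ZW9, AT2G47780 and AT3G19850 ranked high and missed the threshold in both fits. AT2G47780 had the largest difference of these 3, at 4.39 and 4.61 in wild type and at 7.54 and 6.92 in L20 (2.73 ± 0.38). ZW9 was bright in both lines, at 9.96 and 10.22 in wild type and 11.49 and 11.39 in L20 (1.35 ± 0.18). AT3G19850 differed by 1.32 ± 0.21. Lower genes that ranked high without a call in either fit, besides AT4G27280, were AT2G29320 (-1.23 ± 0.18), AT3G01060 (-1.21 ± 0.19), AT2G03310 (-1.20 ± 0.22), AT4G17810 (-1.12 ± 0.20) and AT2G23840. AT2G23840 stood at 7.64 and 7.84 in wild type and at 6.78 and 6.69 in L20.

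By median, the measured members of metabolic gene families lay close between the lines, with single members apart. None of the 51 measured UGT glycosyltransferases was called in either fit, and the family median was 0.06. UGT71C5, which glucosylates abscisic acid, stood at 4.99 and 5.24 in wild type and at 6.16 and 5.66 in L20 (0.79 ± 0.24). SGT, also named UGT80A2, a sterol glucosyltransferase, differed by 0.74 ± 0.21. UGT76E12 stood apart on 1 array only, at 5.91 in replicate 1 of L20 against 3.22, 3.31 and 3.75 on the others.

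Aldehyde dehydrogenases remove reactive aldehydes, and 8 could be measured, with a median of 0.24, or -0.04 without replicate 1 of wild type, and no call. ALDH7B4, a member known to respond to drought and salt, stood at 8.72 and 9.04 in wild type and at 11.10 and 9.73 in L20 (1.54 ± 0.41). Replicate 1 gave a difference of 2.39 and replicate 2 one of 0.69. ALDH2C4, an enzyme of ferulic and sinapic acid synthesis, differed by 0.88 ± 0.34. Of 12 measured genes of the NPF, NRT2 and related transporter families, which move nitrate, peptides and glucosinolates among others, AT2G26690, also named NPF6.2, was the farthest from 0, at 7.20 and 7.57 in wild type and at 8.78 and 8.25 in L20 (1.13 ± 0.35). The 23 cytochromes P450 (median -0.01), 22 beta-glucosidases (median 0.00) and 14 glutathione S-transferases (median -0.19) had no call in either fit. Most of the measured P450 genes belonged to the CYP71B subfamily. Their mean level was between 4.37 and 4.46 on the 4 arrays, at the low end of the scale.

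Arabidopsis has its own bZIP factors, of which 6 were measured, with a median of 0.23 and no call. BZIP17 and BZIP28, membrane-bound factors of endoplasmic reticulum stress, differed by 0.48 ± 0.25 and 0.50 ± 0.39. BZIP53, a factor of amino acid metabolism and seed maturation, differed by 0.25 ± 0.34, and HYH, a relative of the light-signalling factor HY5, by -0.24 ± 0.31. In replicate 1 the list median was 0.91 and in replicate 2 it was -0.09, and without replicate 1 of wild type it was -0.14.

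Genes encoded in the plastid formed the longest measured list, with 69 members. None was called in either fit, 60 of 69 had a difference above 0, and the median was 0.26. Values did not overlap between the lines in 13 members that were higher and 0 that were lower, against 17.4% and 10.3% of all probe sets. The median was 0.45 in replicate 1 and 0.03 in replicate 2, and over all probe sets these medians were 0.10 and -0.01. Without replicate 1 of L20 the median was -0.11, and without replicate 2 of L20 it was 0.63, so that its direction rested on which L20 arrays were used. Without replicate 1 of wild type, the array with the lowest upper quartile, it was 0.36, and after quantile normalization it was 0.09. ndhA, a subunit of the plastid NDH complex, had the largest difference, at 8.37 and 9.42 in wild type and at 9.87 and 9.63 in L20 (0.86 ± 0.36). psbA, the gene of the photosystem II protein D1, stood at 8.69 and 8.97 in wild type and at 9.85 and 9.04 in L20 (0.61 ± 0.31).

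The nuclear genes of the photosystems and antennae had a median of -0.05 over 8 members. PSBY, a small photosystem II protein, stood at 13.29 and 13.53 in wild type and at 13.05 and 12.61 in L20 (-0.58 ± 0.22). LHCB4.2, a light-harvesting protein, differed by -0.31 ± 0.18. Of 16 genes encoded in mitochondria, nad9 of complex I (0.73 ± 0.22) and cox1 of complex IV (0.60 ± 0.22) were farthest from 0, with a list median of 0.08. None of these nuclear or mitochondrial genes was called.

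The replicate numbers gave different spreads. Over all probe sets, the line difference had a standard deviation of 0.515 in replicate 1 and of 0.411 in replicate 2. The replicate 1 minus replicate 2 difference within a line was as wide, at 0.455 in wild type and 0.522 in L20. At least 1 log2 unit in both replicate numbers was reached by 117 probe sets that were higher in L20 and by 97 that were lower. Across probe sets, which are not independent and share the array, the replicate 1 and replicate 2 differences correlated at 0.276. With the numbers crossed, so that replicate 1 of a line was set against replicate 2 of the other, the differences correlated at -0.0759. With at least 1 log2 unit required in the crossed pairs too, 93 higher and 64 lower probe sets were left.

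**Figure D4:**
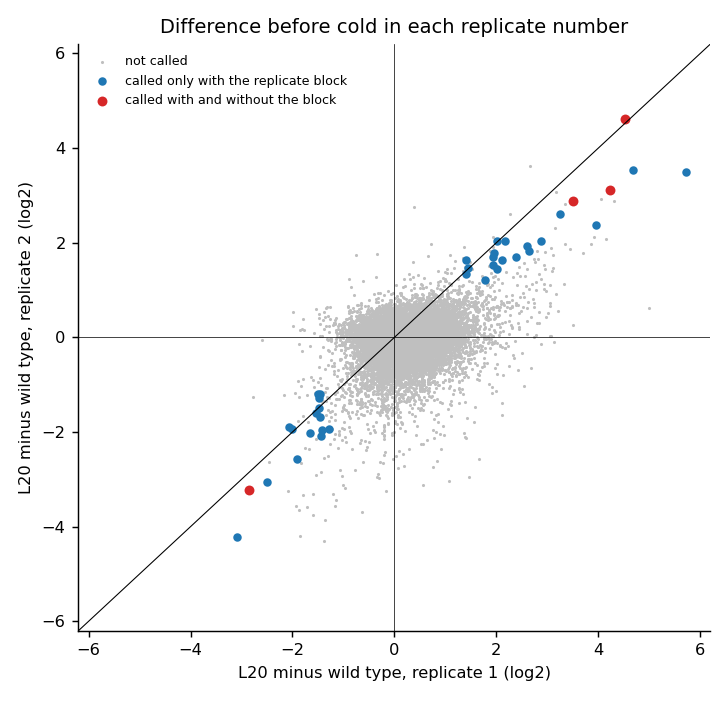
Each point is 1 probe set, with its log2 difference of L20 minus wild type before cold in replicate 1 on the x axis and in replicate 2 on the y axis. The diagonal marks equal differences. The 38 probe sets called with the block, in colour, have the same sign in both replicate numbers, some with unequal sizes such as LTI30 at 5.72 and 3.50, and the grey cloud is wider along x (standard deviation 0.515) than along y (0.411).

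On the arrays taken after 6 h at 4 °C, the same lines lay closer together. Limma called 0 probe sets between them, and 19 (0.0835%) had an unadjusted p under 0.05. The replicate block gave 0 calls too, and 129 (0.567%) had an unadjusted p under 0.05. The line difference had a standard deviation of 0.204 and 0.209 in the replicate numbers. The 16 genes and probe sets named as higher before cold had a median difference of 1.87 before and 0.09 after, with a range after cold from -0.04 to 0.71. For the 15 named as lower, the medians were -1.61 and -0.12, with a range after cold from -0.39 to 0.30. Since these were chosen by their difference before cold, a smaller median on other arrays is a description only.

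Whether the line difference itself differed between the temperatures was tested as an interaction. No probe set passed: the smallest limma adjusted p was 0.297, and 497 probe sets (2.18%) had an unadjusted p under 0.05. Adding the replicate block gave 0 again, with a smallest limma adjusted p of 0.0714, for AT1G16850, and 1215 (5.34%) with an unadjusted p under 0.05. AT2G41190 had the largest difference after cold among the named genes, at 4.97 and 5.21 in wild type and 5.67 and 5.94 in L20 (0.71 ± 0.19, limma adjusted p = 1.00 after cold).

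**Figure D5:**
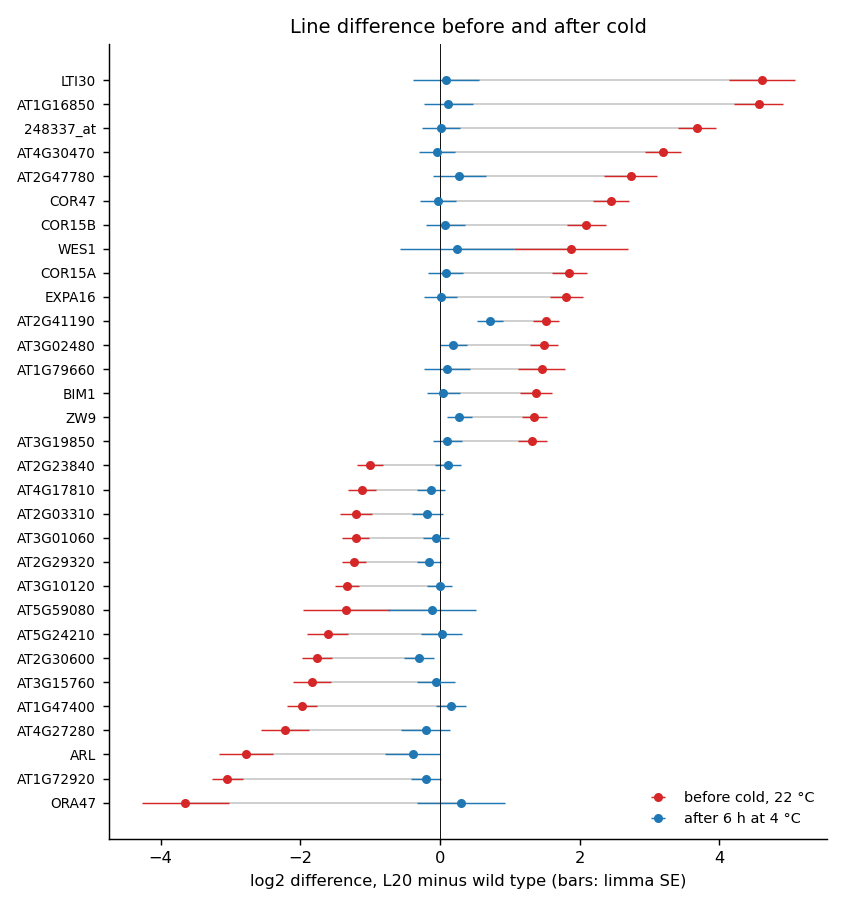
Log2 difference of L20 minus wild type for the genes named by call or rank, red before cold and blue after 6 h at 4 °C, with bars for the limma standard error. Red points run from 4.61 for LTI30 to -3.65 for ORA47, and blue points lie between -0.39 and 0.71.

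The levels of the called genes in chilled wild type are given beside these values, and the comparisons share the wild-type arrays before cold, so no test was made. AT1G16850 stood at 9.13 and 9.88 in chilled wild type, near its 9.20 and 9.44 in L20 before cold. COR47 stood at 12.38 and 12.36, near its 12.62 and 12.51. LTI30 stood at 11.65 and 12.09, above its 10.84 and 9.79.

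Other called genes had different levels under cold. AT4G30470 stood at 5.45 and 5.57 in chilled wild type, near the wild type before cold and far below L20 before cold. EXPA16 did likewise, at 4.48 and 4.38. WES1 stood at 5.86 and 7.59 in chilled wild type, below every L20 value before cold. Of the lower genes, AT1G72920 stood at 3.54 and 3.93 and ORA47 at 4.64 and 3.91 in chilled wild type, within or near the range of L20 before cold.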

How the data were processed

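The authors deposited log2 values for 22810 probe sets on 8 arrays. RMA, with no version, is named in the submitters' processing notes. Of the probe sets, 64 controls were left out. Names came from the platform annotation, updated through RefSeq gene names of TAIR10.1: 13513 probe sets had 1 gene, 503 several and 8730 none. The probe set with the highest mean stood for a gene. No scanner files were used.

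Groups and replicate numbers came from the titles. The test was limma 3.58.1 in R 4.3.3 (a mean per group over 8 arrays, eBayes, two-sided, Benjamini-Hochberg over 22746 probe sets, called at an adjusted p under 0.05). Replicate 1 minus replicate 2 correlated between groups at 0.341 to 0.837, so the numbers were treated as pairing the arrays, from the data and not the labels. The scripts were tested on simulated data. Named were all genes called with or without the block, filled to 15 per direction by rank in the fit without it, up to 4 members per list by smallest p, and 7 cold genes. The comparison, lists and rules were chosen with earlier results of these data known. No list was tested.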

Additional observations from a re-analysis of the deposited data

How the results depend on the processing

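The count of 4 called probe sets moved with most settings. It was 38 with the replicate block, 1 with only the 4 arrays before cold, 0 with those 4 arrays and the replicate block, 9 with probe sets of a mean of at least 6 only, and 17 after quantile normalization. The split was 3 higher to 1 lower as reported and 10 to 7 after quantile normalization. It was 6 with the trended and robust prior and 4 with median-centred arrays. Leaving out single arrays gave 0 to 0. The blocked count of 38 ran from 0 to 615 with single arrays left out, in refits chosen after seeing the data and given array by array with that count. The cause was not tested. No named gene called with or without the block changed sign under the alternatives run. For most alternatives this was fixed in advance. Values of these genes did not overlap between the lines, so leaving out 1 array could not change a sign. The block, the other prior and the fit to 4 arrays leave the difference itself unchanged. List medians, which were not tested, changed sign under at least 1 alternative in 22 of 30 lists with at least 3 measured genes and kept it in 8. Among the changes, without 1 array, WRKY factors went from -0.19 to 0.09 (replicate 2 of L20), bZIP factors from 0.23 to -0.14 (replicate 1 of wild type) and plastid genes from 0.26 to -0.11 (replicate 1 of L20). The number of arrays limits the precision, and signal over background was not analysed here.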

Other observations

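Single genes outside the lists add other functions. The genes here were picked after their values were seen, among 1557 genes with a symbol. Of these 1557, 74 were higher and 19 lower in L20 at an unadjusted p under 0.05. Over all probe sets, 3.99% were higher and 1.55% lower. None of the genes picked here passed the adjusted test of either fit. SWEET4, a sugar transporter, stood at 5.71 and 5.47 in wild type and at 8.89 and 8.54 in L20, a difference of 3.12 ± 0.57. NDB2, a mitochondrial NAD(P)H dehydrogenase that bypasses complex I, was at 4.62 and 4.58 in wild type and at 7.55 and 6.11 in L20 (2.23 ± 0.43). RD2, a gene named for its response to desiccation, differed by 1.40 ± 0.23, and the protease inhibitor gene SERPIN1 stood at 6.39 and 6.15 in wild type and at 7.40 and 7.35 in L20. TPLATE, a subunit of an endocytic adaptor complex, differed by 0.81 ± 0.18. ATERDJ2A, a J-domain protein of the endoplasmic reticulum, differed by 1.03 ± 0.25.

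On the lower side, VTC4, an enzyme of ascorbate synthesis, was at 8.06 ± 0.08 in wild type and 6.92 ± 0.09 in L20 (SD, n = 2), a difference of -1.14 ± 0.23. CHX20, a cation exchanger of guard cells, was at 6.77 and 6.63 in wild type and at 5.91 and 5.48 in L20. MSRB5, a methionine sulfoxide reductase, differed by -1.08 ± 0.24, and the sugar transporter SWEET2 by -0.70 ± 0.24. The gibberellin receptor gene GID1C differed by -0.49 ± 0.19, while GID1A and GID1B differed by 0.17 ± 0.25 and 0.27 ± 0.47. AR781 stood at 7.74 and 7.98 in wild type and at 7.12 and 5.35 in L20, so that its difference of -1.63 ± 0.52 was -0.62 in replicate 1 and -2.63 in replicate 2.

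Other lists had no member called in either fit. The sugar-starvation list had a median of 0.14 over 4 genes, but -0.36 without replicate 1 and 0.63 without replicate 2 of wild type. The median was -0.09 over 4 genes of the flavonoid and anthocyanin list, -0.03 over 6 ARR response regulators, 0.00 over 6 histones, -0.02 over 5 peroxidases and -0.08 over 8 calmodulins. Medians were 0.22 over 8 cellulose synthase family genes, -0.02 over 10 xyloglucan endotransglucosylases, -0.19 over 7 WRKY factors, 0.02 over 7 genes named bHLH by number, which leaves out BIM1, and -0.11 over 8 glutamate-receptor-like channels. For 3 pectin methylesterases and inhibitors it was -0.21, but 0.38 without replicate 1 and -0.80 without replicate 2 of wild type. GI, the only measured gene of the clock list, differed by -0.56 ± 0.30.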
